A study of Drosophila melanogaster with 30 samples.

Results

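The 8 maltase genes *Mal-A1* to *Mal-A8* and the 2 amylase genes *Amy-p* and *Amy-d* of *Drosophila melanogaster* were followed across whole-fly RNA sequencing libraries of *pink1* mutants and controls. The members were taken by gene symbol from the gene count table, and all 10 were found among its 14326 genes. All 10 also passed the filter on low counts, which kept 13190 genes for testing. The study asked which transcripts go with the loss, or the retention, of flight in flies that lack Pink1, a mitochondrial kinase. By the paper's methods, the flies were males aged 1 day, and each library came from a pool of 5 flies. Group 4 held 10 libraries of pink1B9 males that flew, and group 3 held 10 libraries of pink1B9 males from the same parent pairs that did not fly. Group 2 held 8 libraries of pink1B9 males from parent pairs without any flying offspring, and group 1 held 2 libraries of pink1RV males, the controls. The pink1B9 allele is a null allele and pink1RV its revertant, both on a *w* mutant background. The labels do not tie a library of group 4 to one of group 3, and they do not say whether libraries of a group came from separate parent pairs, so the p-values measure the spread between these pools.

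Amylases and maltases are the enzymes by which a fly digests starch. Alpha-amylases, secreted into the gut, cut starch into maltose and short glucose chains, and maltases, which are alpha-glucosidases, release glucose from these products for uptake by the enterocytes, the absorptive cells of the gut. In *Drosophila*, the transcripts of both families are known to vary with the diet, and dietary glucose represses them.

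The maltase cluster is compact. In the BDGP6.54 annotation, *Mal-A1* to *Mal-A8* lie side by side on chromosome arm 2R from position 8449664 to 8473961, a stretch of 24298 bases, with only 65 bases between *Mal-A5* and *Mal-A6*. The genes lie on both strands and have 3 to 5 exons each. *Amy-p* lies further along the same arm at 17118636 to 17120303 and *Amy-d* at 17124764 to 17126369, on opposite strands and 4460 bases apart. Both amylase genes have 1 exon. They are a near-identical pair, and a pseudoaligner can divide the reads they share between them, so their separate levels are uncertain and their sum is given too. *Mal-A1* overlaps *Cyp4e1* by 82 bases and *Mal-A8* overlaps *mtt* by 6 bases, and no source used here says whether the counting used strand.

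Total counts ranged from 6434252 to 38330421 per library, with a median of 19636778.5. *Pink1* itself lay between 42.5 and 101 CPM (counts scaled to library size by the TMM method) over the 28 mutant libraries, against 221 and 270 CPM in the controls, so the labels of genotype and transcript level went together. The tissue label of 6 libraries, 3 each in groups 4 and 3, names human skin, and results that rest on these are given without them. Replicate 4 of group 4 stood apart with 6590 CPM summed over 17 ovary and yolk genes, against at most 44.6 CPM in the other libraries of its group. The methods name males only, and whether this pool held a female was not tested. As a check on gut tissue, the summed level of 7 genes of enterocyte structure and transcription, none at 0 throughout a group, was 79.4 to 142 CPM in group 4, 78.4 to 177 CPM in group 3 and 78.2 to 213 CPM in group 2, against 340 and 372 CPM in group 1. In whole flies, fewer cells of a type and less RNA per cell cannot be told apart.

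Per kilobase of exon, the amylases were the most abundant of the 10 transcripts. Over the 28 mutant libraries, the median level was 167 CPM per kb for *Amy-p* and 65.9 CPM per kb for *Amy-d*. *Mal-A1*, *Mal-A6* and *Mal-A5* followed at medians of 27.9, 27.7 and 24.2 CPM per kb. *Mal-A8* had 7.18, *Mal-A7* 5.02, *Mal-A3* 3.36, *Mal-A4* 2.38 and *Mal-A2* 2.29 CPM per kb. Neighbours in this order often changed places. *Mal-A1* was above *Mal-A6* in 15 of 28 libraries, *Mal-A6* above *Mal-A5* in 16, *Mal-A3* above *Mal-A4* in 14 and *Mal-A4* above *Mal-A2* in 14, so these neighbours did not differ beyond their spread. *Amy-p* was above *Amy-d* in 25 of 28 mutant libraries and *Mal-A5* above *Mal-A8* in 25. In the controls the medians of *Amy-d* and *Amy-p* stood the other way round, at 313 and 243 CPM per kb.

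**Figure D1:**
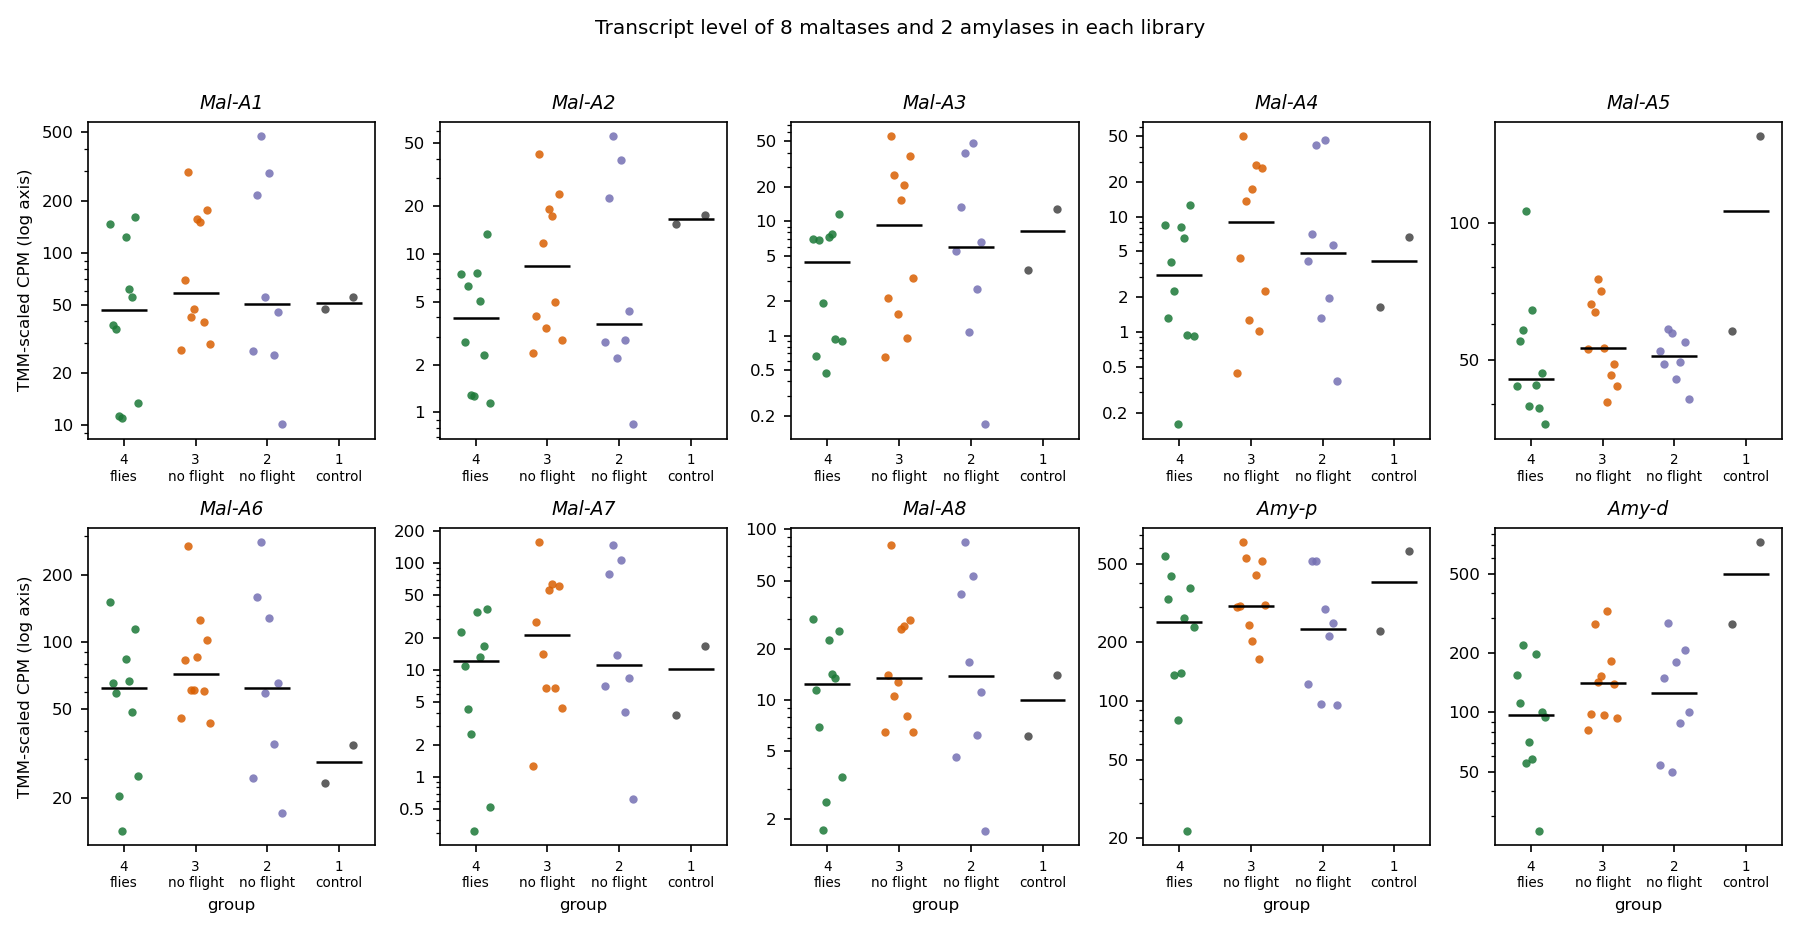
Level of each member in every library, as TMM-scaled CPM on a log axis, by group from left to right (group 4, flying mutants; groups 3 and 2, non-flying mutants; group 1, controls). Points are libraries and bars are group medians; *Mal-A5* spans 36.1 to 106 CPM over the 28 mutant libraries, while *Mal-A7* spans 0.316 to 157 CPM.

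*Amy-d*, the distal alpha-amylase gene, fell in all 3 mutant groups relative to the controls. Its lowest, median and highest levels were 25.3, 97.6 and 219 CPM in group 4, 81.8, 141 and 327 CPM in group 3, and 50, 125 and 284 CPM in group 2, against 280 and 724 CPM in the 2 libraries of group 1. Of the 28 mutant libraries, 25 were below both controls and none was above both. All of group 4 was below group 1, as it was for 12.7% of the genes tested. The log2 fold change over group 1 was -2.21 ± 0.53 (SE) for group 4, -1.66 ± 0.55 for group 3 and -1.85 ± 0.56 for group 2. These correspond to levels 4.62-fold, 3.15-fold and 3.6-fold lower than in group 1. By edgeR's quasi-likelihood test the p adjusted over the 13190 genes (Benjamini-Hochberg) was 0.00306, 0.0276 and 0.0216. The 3 comparisons share the same 2 controls. The call rests on control replicate 2, the higher of the pair: without it the log2 fold changes were -1.37, -0.82 and -1.0 (groups 4, 3 and 2) with edgeR adjusted p of 0.239, 0.544 and 0.501, and without control replicate 1 they were -2.71, -2.16 and -2.36. Without the 6 libraries labelled human skin the call for group 3 was lost (log2 fold change -1.56, edgeR adjusted p = 0.0626), and with only groups 2 and 1 in the fit that for group 2 was lost (-1.85, edgeR adjusted p = 0.0559).

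*Amy-p*, the proximal alpha-amylase gene, was not called in any comparison. It had 21.8, 252 and 548 CPM (lowest, median, highest) in group 4, 163, 306 and 643 CPM in group 3 and 95.1, 232 and 519 CPM in group 2, against 228 and 582 CPM in group 1. The mutant libraries lay on both sides of the controls, with 10 of 28 below both and 1 above both. The log2 fold change over group 1 was -0.66 ± 0.68 (SE) for group 4, -0.15 ± 0.70 for group 3 and -0.62 ± 0.70 for group 2, with edgeR adjusted p of 0.469, 0.896 and 0.555. Without control replicate 2 its sign turned in all 3 comparisons, to 0.16, 0.67 and 0.21. The sum of both amylases was 47.0 to 702 CPM in group 4, 299 to 924 CPM in group 3 and 146 to 802 CPM in group 2, against 508 and 1310 CPM in group 1. This sum had log2 fold changes of -1.31, -0.79 and -1.17 over group 1, and none passed the test (edgeR adjusted p = 0.0814, 0.338 and 0.166).

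The proportion of the 2 amylases also differed between mutants and controls, and this share was examined after the values had been seen. *Amy-d* made up 33.1% ± 10.3 (SD, n = 28) of the counts of both genes in the mutant libraries, with a range of 21.1% to 53.7%, against 55.1% and 55.4% in the 2 controls. Every mutant library was below both controls, although the highest of them was within 2 percentage points: 3 of the 28 were over 50% and 13 were under 30%. The difference was -22.1 percentage points over all mutant libraries, -22.0 points in group 4, -24.5 in group 3 and -19.4 in group 2. Since the share was chosen for this pattern, these values are a description and carry no test. The control pair had nearly the same share although the summed level was 508 CPM in replicate 1 and 1310 CPM in replicate 2. Over the 28 mutant libraries, however, the share was lower where the summed level was higher (Pearson's r = -0.447). Without control replicate 1 and without control replicate 2 the difference was -22.3 and -22.0 points. Between the mutant groups the mean share differed by 2.44 points for group 4 over group 3, -2.67 for group 4 over group 2 and -5.11 for group 3 over group 2, each within the SD of 9.18 to 11 points among libraries of a group. How the pseudoaligner divided shared reads was not tested.

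**Figure D2:**
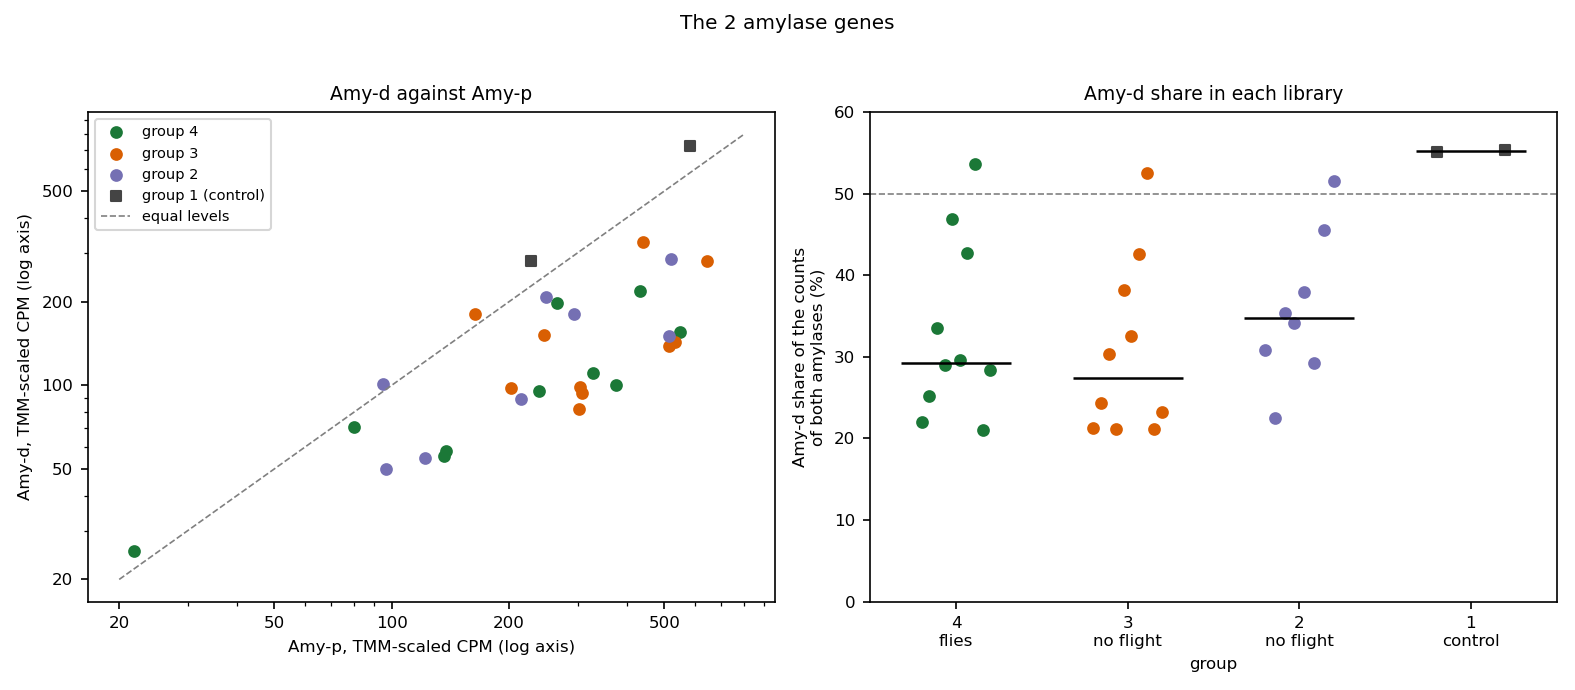
Left, *Amy-d* against *Amy-p* in TMM-scaled CPM, both axes log, one point per library, with a dashed line at equal levels. Right, the share of *Amy-d* in the counts of both genes, in percent, by group, with bars at the medians; both controls lie at about 55%, above all 28 mutant libraries.

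*Mal-A5* was the other member called, and it was also the steadiest. It had 36.1, 45.5 and 106 CPM (lowest, median, highest) in group 4, 40.5, 53.0 and 75.4 CPM in group 3 and 41.1, 50.9 and 58.5 CPM in group 2, against 57.8 and 155 CPM in group 1. The highest mutant library was replicate 4 of group 4, the one with ovary transcripts, and the next in that group had 64.4 CPM. One control thus lay within the range of the mutant libraries and the other above all of them, and 20 of the 28 mutant libraries were below both. *Mal-A5* had a log2 fold change over group 1 of -1.0 ± 0.28 (SE) in group 4, -0.92 ± 0.28 in group 3 and -1.06 ± 0.28 in group 2 (edgeR adjusted p = 0.00803, 0.0169 and 0.0095). Without control replicate 2 these became -0.13, -0.05 and -0.19, with edgeR adjusted p of 0.858, 0.953 and 0.817, and without control replicate 1 they became -1.52, -1.44 and -1.58. The call was also lost for group 3 without the libraries labelled human skin (-0.80, edgeR adjusted p = 0.0518) and for group 4 with only groups 4 and 1 in the fit (-1.02, edgeR adjusted p = 0.0534).

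In each comparison with the controls, therefore, 2 of the 10 members fell and 0 rose. Over all genes tested, 15.7% fell and 17.5% rose in group 4, 12.3% fell and 14.2% rose in group 3, and 9.52% fell and 10.7% rose in group 2. A fall in all 3 comparisons was called for 8.18% of the genes. The median log2 fold change of the members was -0.26 in group 4, 1.00 in group 3 and 1.15 in group 2, beside 0.08, -0.01 and -0.00 over all genes. The control pair differed in gut digestion genes: the summed level of 24 gut serine proteases, which digest protein, was 6260 and 22000 CPM in control replicates 1 and 2, and that of 10 gut lipases 199 and 856 CPM. Control replicate 2 was also the higher of the pair for all 10 members.

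The other 7 maltases differed more between libraries of one group than between groups. *Mal-A1* had 11, 46.4 and 161 CPM (lowest, median, highest) in group 4, 27.3, 58.1 and 295 CPM in group 3 and 10.1, 50.4 and 475 CPM in group 2, against 47.2 and 55.4 CPM in group 1. The 2 controls lay in the middle of the mutant libraries, with 14 of 28 below both and 12 above both. Its log2 fold change over group 1 was 0.36 ± 1.11 (SE) in group 4, 1.01 ± 1.17 in group 3 and 1.48 ± 1.23 in group 2, and none passed the test (edgeR adjusted p = 0.827, 0.548 and 0.408).

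*Mal-A6* was higher than in the controls in most mutant libraries, although it was not called. Its levels were 14.3, 62.6 and 151 CPM in group 4, 43.3, 72.3 and 271 CPM in group 3 and 17.2, 62.2 and 280 CPM in group 2, against 23.3 and 34.5 CPM in group 1. All libraries of group 3 were above both controls, as they were for 19.1% of the genes tested, and 23 of the 28 mutant libraries were. The log2 fold change was 1.17 ± 0.87 (SE), 1.70 ± 0.90 and 1.74 ± 0.91 for groups 4, 3 and 2 over group 1, with edgeR adjusted p of 0.304, 0.158 and 0.173.

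*Mal-A2* was below both controls in 21 of the 28 mutant libraries, also without a call. It had 1.14, 3.92 and 13.3 CPM in group 4, 2.36, 8.39 and 43.0 CPM in group 3 and 0.839, 3.62 and 55.5 CPM in group 2, against 15.5 and 17.6 CPM in group 1. All libraries of group 4 were below both controls, a pattern found for 12.7% of the genes. The highest libraries of groups 3 and 2 reached well above the controls, but the medians of these groups were also below both. The median of group 2 was lower than that of group 4. The log2 fold change over group 1 was -1.77 ± 1.01 (SE) in group 4, -0.31 ± 1.10 in group 3 and -0.01 ± 1.15 in group 2 (edgeR adjusted p = 0.179, 0.862 and 0.998).

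*Mal-A7* had the widest range of the members. It lay at 0.316, 12.1 and 37.4 CPM in group 4, 1.3, 21.4 and 157 CPM in group 3 and 0.629, 11.2 and 148 CPM in group 2, against 3.81 and 16.7 CPM in group 1. The highest mutant library was 497-fold above the lowest, which rested on 4 counts. The controls lay within each mutant group, and the log2 fold changes of 0.49 ± 1.51, 1.97 ± 1.69 and 2.17 ± 1.73 (SE) for groups 4, 3 and 2 did not pass the test (edgeR adjusted p = 0.828, 0.399 and 0.386). Without control replicate 2 they were 1.90, 3.38 and 3.61, also uncalled (edgeR adjusted p = 0.646, 0.457 and 0.489).

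*Mal-A8*, *Mal-A3* and *Mal-A4* were low in most libraries. *Mal-A8* had 1.73, 12.4 and 29.9 CPM in group 4, 6.47, 13.4 and 80.5 CPM in group 3 and 1.72, 13.9 and 84.0 CPM in group 2, against 6.14 and 14.0 CPM in group 1. *Mal-A3* had 0.473, 4.42 and 11.6 CPM in group 4, 0.658, 9.27 and 55.7 CPM in group 3 and 0.168, 6.03 and 48.6 CPM in group 2, against 3.77 and 12.8 CPM in group 1. The groups overlapped for both genes, although control replicate 1 was below all of group 3 for *Mal-A8* and control replicate 2 above all of group 4 for *Mal-A3*. *Mal-A4* had 0.158, 3.15 and 12.6 CPM in group 4, 0.439, 8.97 and 49.9 CPM in group 3 and 0.378, 4.87 and 46.0 CPM in group 2, against 1.65 and 6.59 CPM in group 1. For these 3 genes the log2 fold changes over group 1 ran from -0.86 to 1.81 with SE from 1.07 to 1.60, and no edgeR adjusted p was under 0.393.

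**Figure D3:**
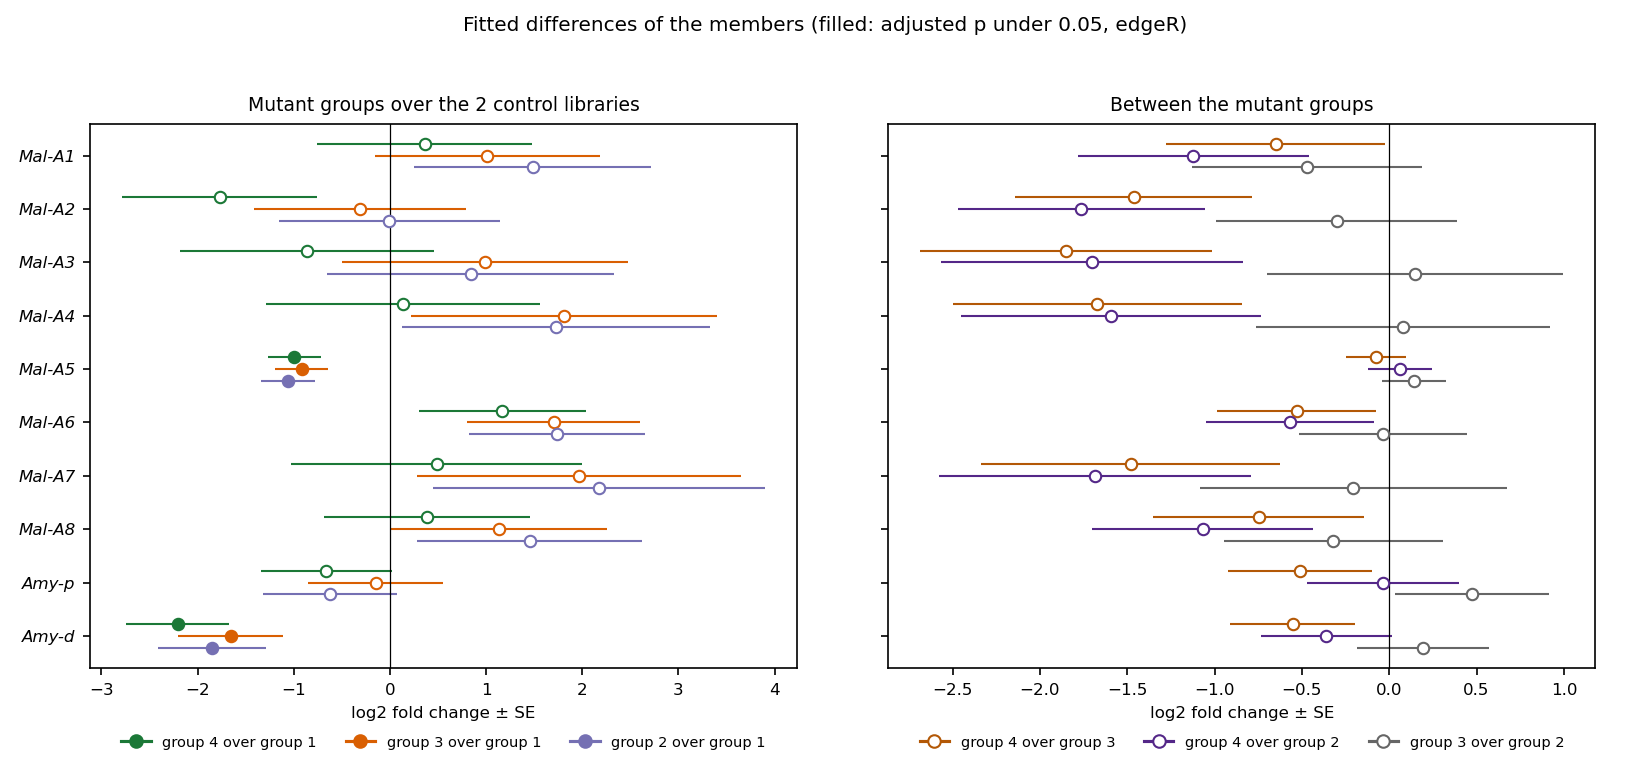
Log2 fold change of each member with its SE in the edgeR fit over all 30 libraries, left for groups 4, 3 and 2 over the 2 control libraries and right between the mutant groups. Filled points passed an adjusted p of 0.05: *Amy-d* and *Mal-A5* in each control comparison, and no member between mutant groups.

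Between libraries of one mutant group, the members were among the most variable genes. The SD of log2(CPM + 1) of *Mal-A7* was 1.78 in group 4, 1.95 in group 3 and 2.33 in group 2, against a median over all genes tested of 0.313, 0.235 and 0.286. For 9 of the 10 members the SD stood between the 95.9th and the 99.9th percentile of all genes in each group. *Mal-A5* was the exception. Its SD was 0.451, 0.303 and 0.170 in groups 4, 3 and 2, at percentiles 78.4, 70.5 and 14.3. The sum of the 7 other maltases was 30, 134 and 376 CPM (lowest, median, highest) in group 4, 84.1, 193 and 951 CPM in group 3 and 31.0, 148 and 1120 CPM in group 2, against 101 and 158 CPM in group 1.

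The same libraries were high, or low, for most of the maltases. Replicate 3 of group 3 had the highest level of its group for all 7 maltases other than *Mal-A5*, and for 8 of the 10 members. Replicate 3 of group 2 was the highest of its group for 5 of the 7 maltases and 8 of the 10 members, and replicate 9 of group 4 for 5 of the 7. At the other end, replicate 8 of group 2 was the lowest for all 7, replicate 1 of group 3 for 6 of the 7 and replicate 5 of group 4 for 5 of the 7. The summed level of the enterocyte genes was also highest in replicate 9 of group 4 (142 CPM), replicate 3 of group 3 (177 CPM) and replicate 3 of group 2 (213 CPM). Other gut lists peaked in part elsewhere. In groups 4, 3 and 2 the gut serine proteases peaked in replicates 7, 4 and 3 and the gut lipases in 7, 3 and 3. Genes of the peritrophic matrix and gut mucins peaked in replicates 3, 4 and 3. Those of the copper cell region did so in 9, 2 and 3, and those of gut stem and enteroendocrine cells in 5, 3 and 6. Only the highest libraries were compared, and the part of gut cells in the spread of the maltases was not tested.

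Across the 28 mutant libraries, the maltases other than *Mal-A5* varied together. *Mal-A1* correlated with *Mal-A8* at Pearson's r = 0.985 (Spearman's rho = 0.986), with *Mal-A7* at 0.966 (0.962), with *Mal-A6* at 0.954 (0.951) and with *Mal-A2* at 0.925 (0.881). With *Mal-A4* r was 0.859 (0.826) and with *Mal-A3* 0.816 (0.802). For each of these 6 relations the permutation p of r was 1e-05, the smallest that 100000 resamples can give, and so was its value adjusted over the 9 relations of *Mal-A1*. Within each of groups 4, 3 and 2, r was 0.756 to 0.982, 0.805 to 0.974 and 0.895 to 0.994 over these 6 genes, and without the 2 libraries farthest from the median of *Mal-A1* it was 0.766 to 0.984. All points share the library and its depth. Over the 21 pairs among the 7 maltases, r ran from 0.758 to 0.985 with a median of 0.907, the lowest being *Mal-A3* with *Mal-A6*. Next to each other in the cluster, *Mal-A3* and *Mal-A4* correlated at r = 0.976.

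*Mal-A5*, in the middle of the same cluster, did not follow over all 28 mutant libraries. Its r with *Mal-A1* was 0.0089 (rho = 0.141, permutation p of r = 0.964), and over its 9 pairs with other members r ran from -0.0159 to 0.18. Within groups 4, 3 and 2, its r with *Mal-A1* was -0.146, -0.0544 and 0.352. Within the 22 mutant libraries labelled whole body, its r with *Mal-A1* was -0.102, and within the 6 labelled human skin it was 0.772. The low values rested in part on single libraries. Without the 2 libraries farthest from the median of *Mal-A5*, its r was 0.384 with *Mal-A6*, 0.325 with *Mal-A7* and 0.342 with *Mal-A8*. With *Amy-p* and *Amy-d* it was then 0.284 and 0.151. The amylases followed the maltases loosely. Over the 14 pairs of an amylase with 1 of the 7 maltases other than *Mal-A5*, r ran from 0.413 to 0.64 with a median of 0.588. *Amy-p* and *Mal-A1* gave r = 0.509 (rho = 0.574, permutation p of r = 0.005, adjusted 0.00643), and *Amy-d* and *Mal-A1* gave r = 0.477 (rho = 0.484, permutation p of r = 0.0103, adjusted 0.0116). Without the 2 libraries farthest from the median of *Mal-A1*, these were 0.426 and 0.342. They did not hold to the same extent in each group or label: r with *Amy-p* was 0.293, 0.472 and 0.826 in groups 4, 3 and 2, 0.642 in the whole-body libraries and 0.242 in those labelled human skin, and r with *Amy-d* was 0.172, 0.559, 0.648, 0.579 and 0.0899.

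**Figure D4:**
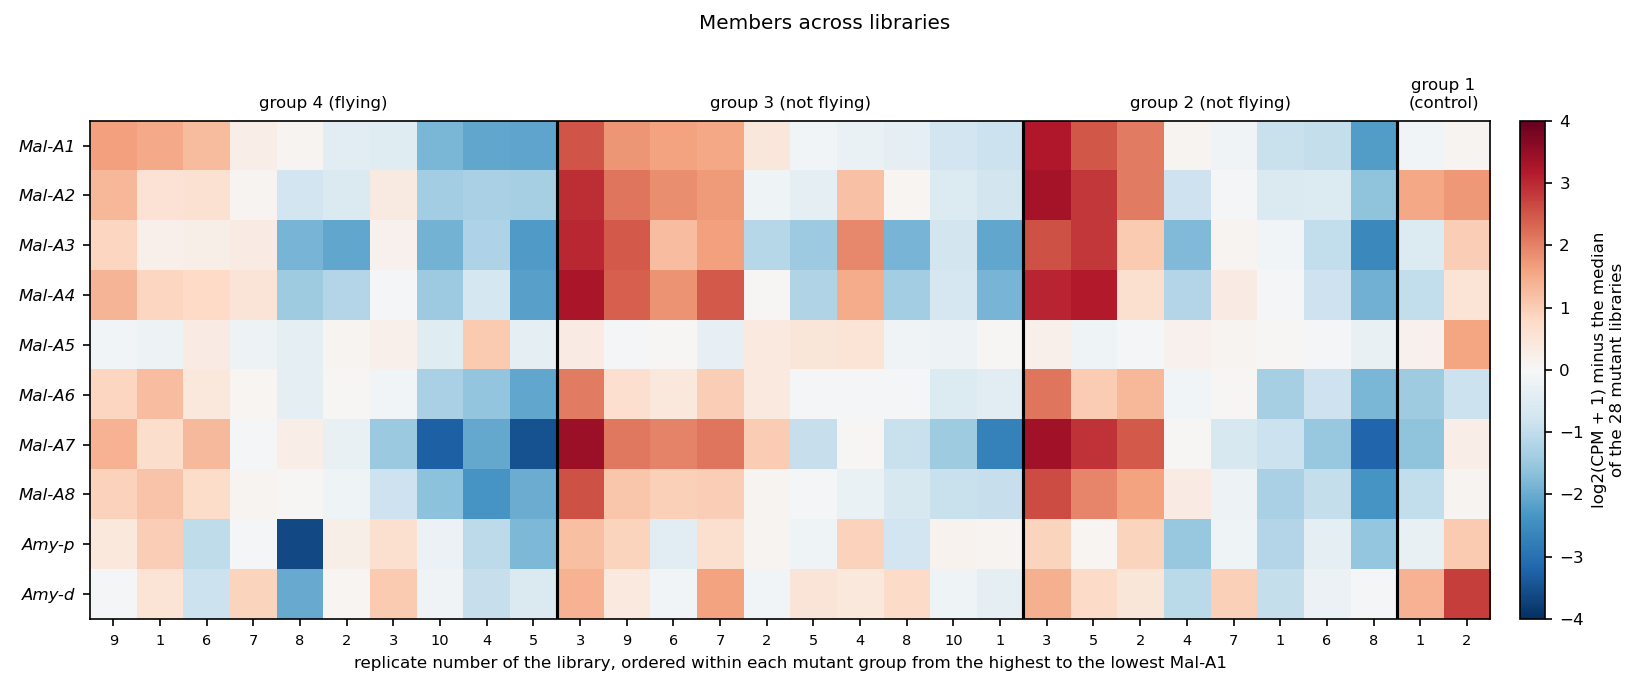
Log2(CPM + 1) of each member minus its median over the 28 mutant libraries, one column per library, ordered within each mutant group from the highest to the lowest *Mal-A1*. The 7 maltases other than *Mal-A5* change from high to low together within each group, while *Mal-A5* stays near its median apart from replicate 4 of group 4 and control replicate 2.

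Flying mutants had lower fitted levels than non-flying mutants for nearly all members, but no member passed the test. Group 4 over group 3, the comparison within the same parent pairs, gave negative log2 fold changes for all 10 members, from -1.85 to -0.08, beside 42.4% of all genes. The median was -0.70, against 0.03 over all genes. Since the maltases move together from library to library, these 10 signs are not independent. Nor was the shift particular to the members: the median was -0.86 over 10 gut lipases and -0.475 over 4 other genes of these enzyme families. It lay between -0.40 and 0.13 over the other gut lists given below. *Mal-A3* had the lowest p of this comparison, with a log2 fold change of -1.85 (95% interval -3.49 to -0.211, edgeR adjusted p = 0.616), and *Mal-A2* followed at -1.46 (-2.79 to -0.135, edgeR adjusted p = 0.616). These 2 were the only members with an unadjusted p under 0.05, as it was, with a lower level, for 2.62% of all genes. None of the 10 had an adjusted p under 0.05 in edgeR, DESeq2 or limma-voom, and neither had any gene in edgeR (0.0%).

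Group 4 over group 2 gave negative fold changes for 9 of the 10 members, beside 42.0% of all genes, with a median of -1.10. These fold changes compare means, and the high libraries of group 2 (replicates 2, 3 and 5, the top 3 for each of the 7 maltases other than *Mal-A5*) enter them. The median over libraries of group 4 was above that of group 2 for *Mal-A2* (3.92 and 3.62 CPM in groups 4 and 2), *Mal-A6* (62.6 and 62.2 CPM), *Mal-A7* (12.1 and 11.2 CPM) and *Amy-p* (252 and 232 CPM). *Mal-A2* was the one member under an unadjusted p of 0.05, at -1.76 (95% interval -3.15 to -0.377, edgeR adjusted p = 0.344), beside 5.26% of genes lower at this limit. *Mal-A5* was the exception in sign, at 0.06 (-0.295 to 0.423), and this sign turned to -0.10 without replicate 4 of group 4. Again 0 members were called by edgeR, DESeq2 or limma-voom, and 0.0% of all genes by edgeR. Between both kinds of non-flying mutants, group 3 over group 2, the members lay between -0.47 and 0.47 with 5 positive and 5 negative, the lowest unadjusted p was 0.29 and edgeR, DESeq2 and limma-voom called 0 members. The signs of the 5 negative members, *Mal-A1*, *Mal-A2*, *Mal-A6*, *Mal-A7* and *Mal-A8*, turned positive in limma-voom. In that comparison 0.0% of all genes were called and 1.84% had an unadjusted p under 0.05.

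With groups 3 and 2 joined as non-flying mutants, the flying mutants had negative fold changes for all 10 members, beside 42.1% of all genes. The median log2 fold change was -0.89 over the members, -0.97 over 10 gut lipases and -0.49 over 4 other genes of these enzyme families. It lay between -0.22 and 0.21 over the other gut lists given below. *Mal-A3* averaged 4.55 CPM in flying and 15.6 CPM in non-flying mutants, with a log2 fold change of -1.78 (95% interval -3.28 to -0.292). *Mal-A4* averaged 4.54 CPM in flying and 14.0 CPM in non-flying mutants (-1.64, -3.11 to -0.163), and *Mal-A2* 4.85 CPM in flying and 14.6 CPM in non-flying mutants (-1.61, -2.82 to -0.392). These 3 had an unadjusted p under 0.05, which 5.36% of genes reached with a lower level, and their edgeR adjusted p was 0.319, 0.342 and 0.286. No member was called by edgeR, DESeq2 or limma-voom, while 0.326% of all genes were called in edgeR. The interval of *Mal-A5*, -0.313 to 0.28 around -0.02, leaves out a change of 1.5-fold, whereas those of the other maltases do not.

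Of 4 further genes of the same enzyme families, only *tobi* was called, and it rose over the controls. *tobi*, an alpha-glucosidase of the fat body known as a target of insulin signalling, had 19.5, 59.5 and 208 CPM (lowest, median, highest) in group 4, 58.5, 84.4 and 296 CPM in group 3 and 55.6, 78.1 and 283 CPM in group 2, against 7.83 and 13.0 CPM in group 1. All 28 mutant libraries were above both controls, as they were for 7.75% of the genes tested. Its log2 fold change was 2.82 ± 0.83 (SE), 3.30 ± 0.86 and 3.34 ± 0.87 for groups 4, 3 and 2 over group 1, with edgeR adjusted p of 0.0117, 0.00676 and 0.00779. *Mal-B1* and *Mal-B2*, the maltases of a second cluster on arm 2L, were not called. *Mal-B2* averaged 72.2 ± 22.4, 99.4 ± 32.6 and 103 ± 28.6 CPM in groups 4, 3 and 2 (SD, n = 10, 10 and 8), against 78.4 and 95.5 CPM in group 1. *Mal-B1* averaged 42.3 ± 31.8, 49.4 ± 41.6 and 69.8 ± 40.8 CPM in groups 4, 3 and 2, against 38.9 and 22 CPM in group 1. *Amyrel*, an amylase-related gene, was near the limit of detection, with at most 2.68 CPM in any library and 5 and 3 counts in the controls. In flying over non-flying mutants all 4 genes had negative log2 fold changes, none called. These were -0.50 for *tobi*, -0.49 for *Mal-B2*, -0.47 for *Mal-B1* and -1.7 for *Amyrel*.

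**Figure D5:**
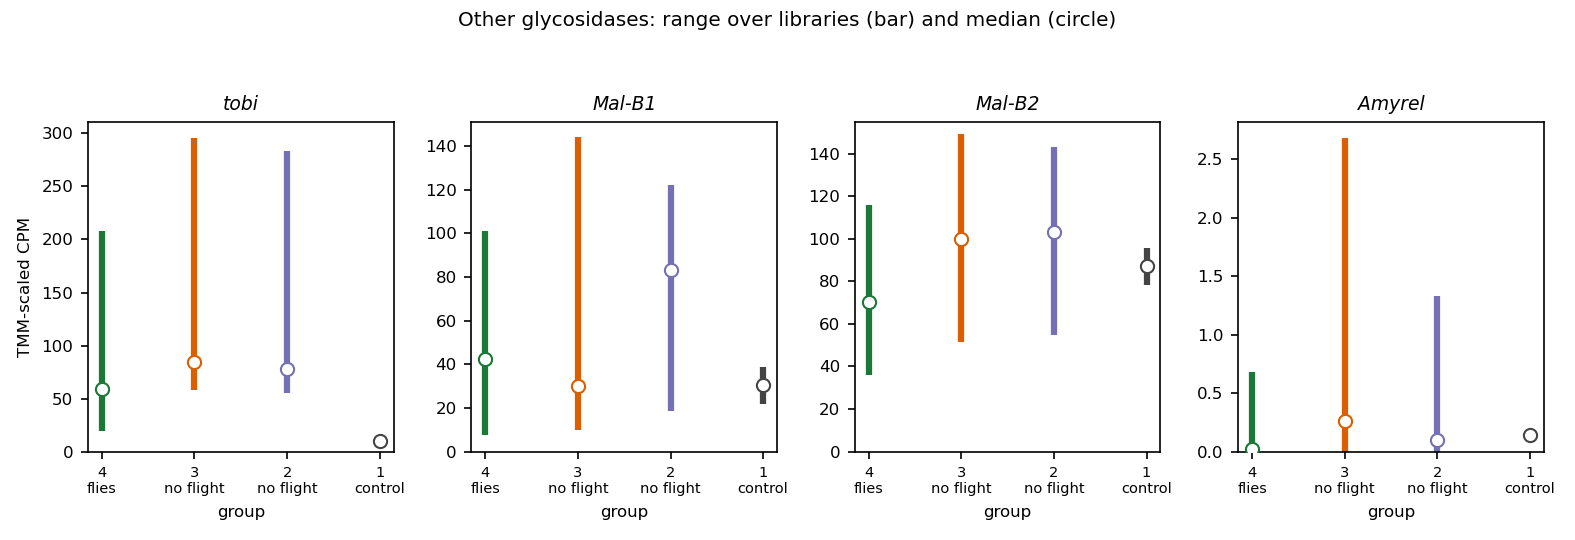
Range over libraries (bar) and median (circle) of *tobi*, *Mal-B1*, *Mal-B2* and *Amyrel* in TMM-scaled CPM, by group. All mutant libraries lie above the controls for *tobi*, whose lowest mutant level is 19.5 CPM, and the ranges overlap for the other 3 genes.

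Digestion of starch feeds the transport and sensing of sugar. Over all genes tested, 17.5% rose and 15.7% fell in group 4, and 14.2% rose and 12.3% fell in group 3. In group 2, 10.7% rose and 9.52% fell. Of 10 genes of trehalose metabolism and sugar transport, 2 rose and 2 fell in group 4 and in group 3, and 1 rose and 2 fell in group 2, all over group 1, with a median log2 fold change of -0.01, 0.07 and 0.10. *Treh*, the trehalase that splits the blood sugar trehalose, averaged 237 ± 37.0, 276 ± 32.5 and 276 ± 45.0 CPM in groups 4, 3 and 2, against 333 and 464 CPM in group 1 (log2 fold change -0.75, -0.53 and -0.53). *sut2*, a sugar transporter, averaged 1.87 ± 0.54, 1.99 ± 0.47 and 1.95 ± 1.13 CPM in groups 4, 3 and 2, against 5.39 and 6.95 CPM in group 1 (log2 fold change -1.72, -1.63 and -1.64). *Tret1-2*, a trehalose transporter gene, rose by 0.62, 0.67 and 0.69 on the log2 scale. For *Treh*, *sut2* and *Tret1-2* every edgeR adjusted p in these comparisons was between 0.000521 and 0.0267.

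Of the 7 measured genes of sugar sensing and glucose repression, 4, 3 and 2 fell in groups 4, 3 and 2 over group 1. In these comparisons 0 rose, and over all genes tested 15.7%, 12.3% and 9.52% fell. *sug*, which encodes the sugar-induced transcription factor Sugarbabe, averaged 30.9 ± 5.56, 31.0 ± 11.1 and 28.8 ± 10.4 CPM in groups 4, 3 and 2, against 42.8 and 77.1 CPM in group 1, with log2 fold changes of -0.96, -0.95 and -1.06 (edgeR adjusted p = 0.0176, 0.0226 and 0.0171). *daw*, the activin-like ligand Dawdle that takes part in glucose repression of digestive enzymes, averaged 35.0, 38 and 34.3 CPM in groups 4, 3 and 2, against 28.7 and 103 CPM in group 1. It passed the test in groups 4 and 2 (edgeR adjusted p = 0.0299 and 0.0419) and not in group 3 (0.0657), although 1 control lay among the mutant libraries. *Smox*, the Smad protein downstream of the activin receptors, and *put*, a receptor subunit, each fell in groups 4 and 3. Of 14 genes of nutrient and insulin response, 2 rose and 3 fell in group 4, and 1 rose and 1 fell in groups 3 and 2. The shares over all genes given above stand beside these counts too. *Pepck1*, an enzyme of gluconeogenesis, averaged 357 ± 50.1, 437 ± 75.7 and 426 ± 167 CPM in groups 4, 3 and 2, against 120 and 173 CPM in group 1 (log2 fold change 1.29, 1.58 and 1.54, edgeR adjusted p = 0.00182, 0.000464 and 0.000686).

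Most gut serine proteases and all enterocyte genes listed fell in each mutant group. Over all genes tested, 15.7%, 12.3% and 9.52% fell in groups 4, 3 and 2. Of 24 gut serine proteases, 17, 14 and 16 fell in groups 4, 3 and 2 over group 1 and 0 rose, with a median log2 fold change of -2.91, -1.95 and -2.57. *Jon65Aiv*, a Jonah serine protease, averaged 282 ± 184, 348 ± 161 and 212 ± 84.4 CPM in groups 4, 3 and 2, against 1240 and 3920 CPM in group 1. Of 10 gut lipases, 3, 2 and 3 fell and 0 rose, with medians of -1.40, -0.43 and -0.44, and *CG6295* averaged 66.5 ± 35.7, 88.8 ± 40.8 and 61.1 ± 35.4 CPM, against 140 and 462 CPM in group 1. All 7 enterocyte genes fell in each mutant group, with medians of -1.40, -1.27 and -1.26. Among them *mex1*, a midgut gene, averaged 11.7, 12.1 and 11.7 CPM, against 19.4 and 24.6 CPM in group 1. *mesh*, a gene of the septate junctions between enterocytes, averaged 13.2, 21.0 and 21.9 CPM, against 118 and 146 CPM in group 1. Of 7 measured genes of the peritrophic matrix and gut mucins, 4 fell in each group, and 0, 1 and 1 rose. Of 3 genes of the copper cell region, 2, 2 and 1 fell, and of 11 genes of gut stem and enteroendocrine cells, 5 fell and 1 rose in each group. *Amy-d* and *Mal-A5* were also called lower in these comparisons, but their calls rested on control replicate 2. The enterocyte sum was high in both controls, at 340 and 372 CPM. *Mal-A1*, *Mal-A4*, *Mal-A6*, *Mal-A7* and *Mal-A8* had positive log2 fold changes in each comparison, not called, beside the same fall of the enterocyte genes. In group 4 the signs of *Mal-A1*, *Mal-A4*, *Mal-A7* and *Mal-A8* were negative in limma-voom. The part of gut cell content in the results was not tested.

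Among 10810 genes with a mean of at least 5 CPM over the mutant libraries, those most like *Mal-A1* across these 28 libraries were *CG4377* (r = 0.973), *CG4363* (0.962), *CG10911* (0.947), *lectin-37Db* (0.919) and *CG44250* (0.919). Only 7 genes outside the members reached r = 0.9, and the median r over all genes searched was -0.07. Their levels against the controls differed: *CG4363* had a median of 31.2 CPM over the mutant libraries, against 2.59 and 7.71 CPM in the controls, and *CG10911* a median of 49.6 CPM, against 235 and 369 CPM. *Amy-p* had no gene at r = 0.9. Its nearest were *CG18180* (0.871), *Phae2*, a serine protease gene (0.855), *CG8952* (0.832), *CG5107* (0.823) and *CG1544* (0.812). *CG18180* spanned 23.6 to 366 CPM in the mutant libraries, against 18.1 and 276 CPM in the controls, so this gene too was much higher in control replicate 2.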

How the data were processed

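RNA was sequenced from 30 pools of 5 whole flies, males by the paper's methods. The authors filtered reads with fastp 0.23.4, pseudoaligned them with kallisto 0.44.0 to BDGP6.46 and derived counts with tximport 1.26.1, whereas the submitters' processing notes name kallisto 0.45.0 and GRCh38. The authors deposited estimated counts for each gene, all whole numbers, and no source used here says whether they were length-scaled. The authors' group comparisons used sleuth, which needs kallisto's own output.

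Counts were fitted with edgeR 4.0.16 (R 4.3.3) in 1 model of 4 groups, with filterByExpr, TMM scaling, the robust quasi-likelihood F-test and Benjamini-Hochberg adjustment over the 13190 genes kept (threshold 0.05). The flying contrast had 3 classes. The SE was the size of the log2 fold change over the square root of F, and intervals span 1.96 SE. CPM were TMM-scaled. Relations and spreads used log2(CPM + 1) and 100000 resamples, and likeness was searched over genes with a mean of at least 5 CPM. The alternatives tried were other scalings, limma-voom (limma 3.58.1), DESeq2 1.42.0, no filter, a dispersion that was not robust, only the groups compared, summed amylases, and fits without single libraries or the 6 labelled human skin. Alternatives for the *Amy-d* share were chosen after seeing the data. Python 3.11.15 with numpy 2.4.6, pandas 2.3.3, scipy 1.17.1 and matplotlib 3.10.9 made the tables and figures.

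The members and the 13 further gene lists were chosen with earlier results of these data known. Named were all members, up to 4 genes of a list with the smallest p in group 4 over group 1, *Mal-B1*, *Mal-B2*, *Amyrel*, *tobi* and *Pink1*, and the 5 genes most like *Mal-A1* and *Amy-p*. The steps were tested on simulated counts: in group 4 over group 1, 16%, 62%, 94% and 96% of genes changed 1.5-, 2-, 4- and 8-fold were called, and 7.59% of calls were unchanged genes. In group 4 over group 3, 48%, 90%, 100% and 100% were called, with 8.65% unchanged. The changed genes were drawn at random, whereas all members but *Mal-A5* stood among the most variable genes. These rates therefore do not apply to those members, whose SE in group 4 over group 3 reached 0.86 (*Mal-A7*). The lists of Malpighian tubule genes (5, 4 and 3 of 7 fell and 1 rose in groups 4, 3 and 2 over group 1) and of testis genes (6, 5 and 2 of 8 rose) served as markers of other tissues. Flight assays were not analysed here.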

Additional observations from a re-analysis of the deposited data

Results flagged for a closer look

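In 6 of 30 sets (10 members in 3 mutant groups), 1 library lay farther from its group in CPM than a Dixon test allows at the 95% level. That test assumes a normal distribution, under which chance gives about 1 in 20. The CPM of most members were skewed towards high values, so the 6 cannot be set against that rate and are a description only. In replicate 3 of group 3, *Mal-A2* (43.0 CPM, the next library 24.0), *Mal-A6* (271, next 126), *Mal-A7* (157, next 63.5) and *Mal-A8* (80.5, next 29.4) stood above the other libraries. Since these maltases move together, the 4 are not separate events. *Mal-A2* was at 13.3 CPM in replicate 9 of group 4, with the next library at 7.63. *Mal-A5* was at 106 CPM in replicate 4 of group 4, with the next at 64.4, and this library also held the ovary transcripts. Without it, the log2 fold change of *Mal-A5* in group 4 over group 1 was -1.19 (edgeR adjusted p = 0.000352).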

How the results depend on the processing

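Of 749 fold changes of members and summed amylases (7 comparisons) under alternatives other than leaving out 1 library, 726 kept direction and side of the threshold, 19 reversed and 4 lost the call. With 1 library left out, 2242 of 2310 did, 62 reversed and 6 lost the call, all 6 without control replicate 2. The members called in group 4, 3 and 2 over group 1 were 2 each, and leaving out single libraries gave 0 to 2 each. They were 1 each with the amylases summed, 1 in groups 4 and 2 with only the groups compared, and 0 in group 3 without the libraries labelled human skin. No sum of amylases was called. In the other comparisons the count stayed at 0.

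The values that reversed were all uncalled. By limma-voom they were, in group 4 over group 1, *Mal-A1* -0.24, *Mal-A4* -0.44, *Mal-A7* -0.29 and *Mal-A8* -0.0076; *Mal-A3* -0.38 in group 2 and -0.0059 in group 3 over group 1; and *Mal-A5* -0.011 in group 4 over group 2. In group 3 over group 2 limma-voom gave *Mal-A1* 0.082, *Mal-A2* 0.34, *Mal-A6* 0.29, *Mal-A7* 0.19 and *Mal-A8* 0.11, and leaving out the libraries labelled human skin gave *Mal-A6* 0.13 and *Mal-A7* 0.024. By total counts *Mal-A2* was 0.058 in group 2 over group 1. Without replicate 4 of group 4, *Mal-A5* was -0.10 and *Amy-p* 0.031 in group 4 over group 2. Without the libraries labelled human skin, *Amy-p* was 0.071 in group 4 over group 2, *Mal-A5* 0.081 in flying over non-flying mutants, and the r of *Mal-A5* with *Mal-A1* -0.10. The cause was not tested.

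Leaving out single libraries gave these ranges where a sign turned. In group 4 over group 1, *Mal-A3* was -1.47 to 0.26, *Mal-A4* -0.52 to 1.44, *Mal-A7* -0.19 to 1.90, *Mal-A8* -0.067 to 1.09 and *Amy-p* -1.16 to 0.16. In group 3 over group 1, *Amy-p* was -0.65 to 0.67 and the summed amylases -1.30 to 0.041. In group 2 over group 1, *Mal-A2* was -0.61 to 0.18 and *Amy-p* -1.12 to 0.21. In group 4 over group 2, *Mal-A5* was -0.10 to 0.12, *Amy-p* -0.23 to 0.18 and the summed amylases -0.30 to 0.080. In group 3 over group 2, *Mal-A1* was -0.80 to 0.11, *Mal-A2* -0.70 to 0.30, *Mal-A3* -0.29 to 0.68, *Mal-A4* -0.37 to 0.62, *Mal-A6* -0.37 to 0.42, *Mal-A7* -0.76 to 0.34 and *Mal-A8* -0.81 to 0.18. *Mal-A5* in flying over non-flying mutants was -0.17 to 0.035. Total counts alone moved the median of all genes to 0.12 in group 4 over group 1.

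No paired analysis was possible because the labels carry no number that ties libraries of group 4 to those of group 3, and do not say that adjacent library names are pairs. With 2 controls, the SE of the maltases other than *Mal-A5* was 0.87 to 1.73 on the log2 scale, so a difference of 2-fold was not detectable for any of them.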

Other observations

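The *Amy-d* share lay close in libraries of groups 4 and 3 with adjacent library names, a pattern noticed in the data. The submitters' names alternate between groups 3 and 4, and the labels do not say whether adjacent libraries come from the same parent pair. In order of the names, the share was 22% in group 4 and 21.3% in group 3, then 25.2% and 24.4%, 33.5% and 30.4%, 29.0% and 21.2%, 46.9% and 38.2%, 29.6% and 32.6%, 42.7% and 42.6%, 53.7% and 52.5%, 21.1% and 21.2%, and 28.4% and 23.3%. The median difference was 2.07 percentage points over these 10 pairs and 9.97 points over the other 90 pairs of a group 4 and a group 3 library. For 4 of the 10 libraries of group 4, the adjacent library was the nearest of group 3 in share. The levels showed less of this: the median difference of log2(CPM + 1) was 1.17 in adjacent and 1.5 in other pairs for *Mal-A1*, and 0.729 and 0.774 for *Amy-d*. It was 1.11 and 1.76 for *Mal-A4* and 0.265 and 0.404 for *Mal-A5*, and the adjacent pairs had the lower median for every member. The difference between adjacent and other pairs was not tested.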
